A study of Mus musculus with 6 samples.

Results

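Axon guidance ligands and receptors are the secreted and membrane proteins by which cells steer growing axons and migrating cells. The genes of these proteins were chosen by symbol and were protein-coding: semaphorins of classes 3 to 7, plexins and the plexin domain containing genes Plxdc1 and Plxdc2, neuropilins, Eph receptors, ephrins, Slit and Robo genes, netrins, netrin-G genes, Unc5 genes, Dcc, Neo1 and repulsive guidance molecules. This rule found 60 genes among the 13970 genes listed by the study, of which 59 were among the 13278 genes listed in both extractions. The remaining gene, Unc5d, stood in the table of genes listed for the standard extraction alone, which held 0.537% of all listed genes. No member stood in the table for the optimized extraction alone, which held 4.42% of all listed genes. Of 76 annotated protein-coding genes that meet the rule, 16, such as Slit1, Robo3 and Dcc, were not analysed here.

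The RNA came from heavy complexes (polyribosomes and other large assemblies of RNA and protein) in primary astrocytes cultured from newborn (P0-P2) C57BL/6JOlaHsd mice, pooled male and female and left untreated. In the optimized extraction (3 libraries, batches A, B and C), lysis took place directly on the plate in a HEPES buffer with the mild detergent DDM and a higher salt concentration. In the standard extraction (3 libraries, batches A, B and C), cells were scraped, frozen as pellets and lysed in a Tris buffer with Triton X-100, sodium deoxycholate and less salt. Both lysates held cycloheximide, which halts ribosomes on mRNA, and both were spun through a sucrose cushion before stranded total RNA libraries were made. The design calls the 3 repetitions biological, and it asks which transcripts each extraction brings into heavy complexes. Per the design, the same amount of mRNA from each pellet was sequenced. Each gene has 1 value, its log2 ratio of the optimized over the standard extraction as the authors' deposited table lists it, without an error. The spread between batches and the depth are unknown, so no gene was tested. In the text that follows, a log2 ratio of 1 or more is called at least 2-fold higher. In these bulk pellets a larger share of a transcript in heavy complexes, more recovery from a subset of cells and a different scaling of the libraries cannot be told apart.

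Most guidance signals come as a ligand, displayed on or released from one cell, and a transmembrane receptor on the responding cell. Semaphorins bind plexins, alone or with neuropilins as co-receptors; ephrins bind Eph receptor tyrosine kinases; Slits bind Robo receptors; netrins bind Dcc, neogenin (Neo1) and Unc5 receptors; and repulsive guidance molecules bind neogenin. The proteins enter the endoplasmic reticulum (ER) while they are made, so their mRNAs are translated on membrane-bound ribosomes. Some ligands are secreted, some span the membrane, and some are held by a glycosylphosphatidylinositol (GPI) lipid. Astrocytes express many of these genes, and ephrins and semaphorins of glia are known to act on axons and synapses.

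Nearly all of the 59 shared members had lower log2 ratios than the typical gene. All 59 were above 0, which does not set them apart, since only 5% of all shared genes lay below 0.57. Their median log2 ratio was 0.80, or 1.74-fold in favour of the optimized extraction, against 1.09 (2.13-fold) over all 13278 shared genes, called the shared-gene median below. The quartiles of the members were 0.71 and 0.95, and those of all shared genes were 0.90 and 1.27. Of the 59 members, 56 lay below the shared-gene median, against 50.0% of all shared genes by definition and 51.0% of the 12620 shared protein-coding genes. Ratios of 2-fold or more were found for 10 members (16.9%), against 63.0% of all shared genes and 62.4% of the protein-coding ones. The members above the median were Efna4, Rgmb and Rgma. Of the members, 36 lay below the lower quartile of all shared genes and 2 above the upper quartile. The members closest to the 2-fold line were Plxdc1 at 1.00 (2.00-fold) and, under it, Ntng1 at 0.99 (1.98-fold) in the authors' deposited table.

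**Figure D1:**
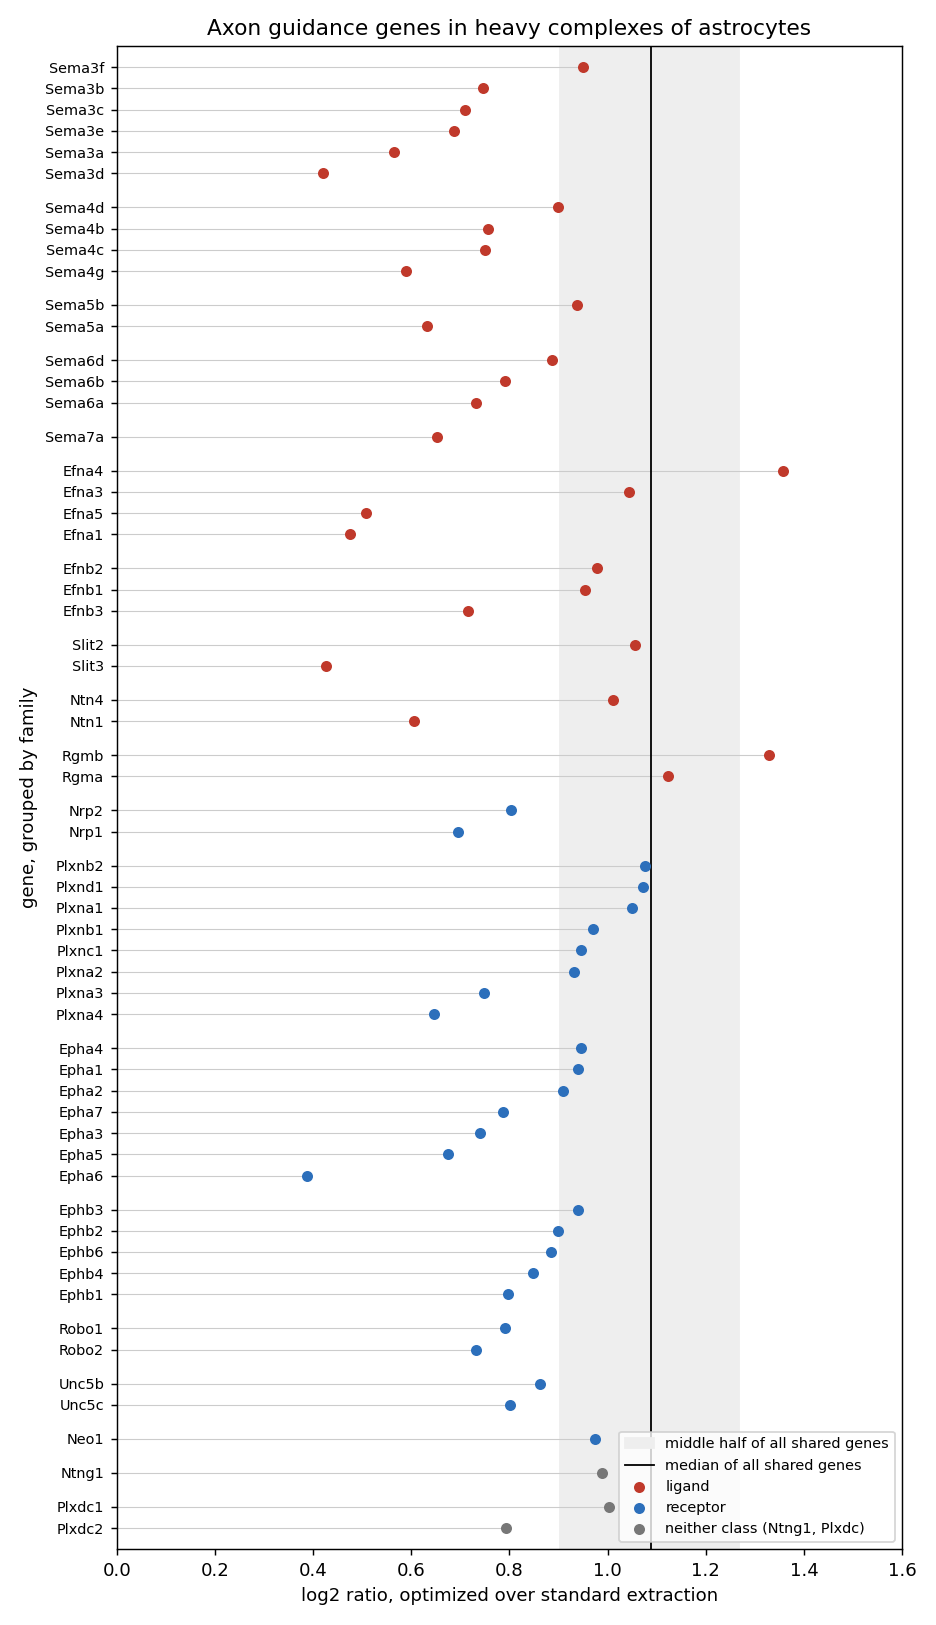
Deposited log2 ratio of the optimized over the standard extraction (x axis) for each of the 59 shared axon guidance genes (y axis, grouped by family, 1 point per gene). The vertical line is the shared-gene median (1.09) and the grey band spans their quartiles (0.90 to 1.27); Efna4, Rgmb and Rgma are the points right of the line.

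Among the ligands, the 16 semaphorin genes had a median log2 ratio of 0.74 and ran from 0.42 to 0.95. All 16 thus lay below the shared-gene median, and 0 reached 2-fold, against 63.0% of all shared genes. The class 3 semaphorins, secreted ligands that mostly act through neuropilins and type A plexins, had a median of 0.70. Sema3d was listed at 0.42 (1.34-fold) in the authors' deposited table, and 2.52% of all shared genes were lower. Sema3a, known for making growth cones collapse, stood at 0.56 in the authors' deposited table. The authors' deposited table gave Sema3e, a ligand of Plxnd1, a ratio of 0.69. Sema3c (0.71) and Sema3b (0.75) followed in the authors' deposited table. The highest class 3 gene in the authors' deposited table was Sema3f, a ligand of Nrp2, at 0.95 (1.93-fold). Sema3f alone of this class lay above the lower quartile of all shared genes.

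The membrane-spanning semaphorins of classes 4, 5 and 6 lay in a narrower range. Class 4 had a median log2 ratio of 0.75: the authors' deposited table listed Sema4d, a ligand of Plxnb1, at 0.90, Sema4b at 0.76, Sema4c at 0.75 and Sema4g at 0.59. The class 5 pair, which carry thrombospondin repeats, differed by 0.30, with Sema5b at 0.94 and Sema5a at 0.63 in the authors' deposited table. For class 6, ligands of type A plexins, the authors' deposited table listed Sema6d at 0.89, Sema6b at 0.79 and Sema6a at 0.73. Sema7a, the GPI-anchored semaphorin that binds Plxnc1, stood at 0.65 (1.57-fold) in the authors' deposited table. Within each of classes 4, 5 and 6 the ratios spanned 0.31, 0.30 and 0.16 on the log2 scale, against 0.53 in class 3.

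The ephrins, ligands of Eph receptors, held both the highest member and some of the lowest. Efna4 (chr3:89333390-89338028 in mm10, minus strand) was listed at 1.36 (2.56-fold) in the authors' deposited table, the highest ratio of all members, above 83.7% of all shared genes. Efna3 (chr3:89313899-89322965, minus strand) stood at 1.04 (2.06-fold) in the authors' deposited table. Efna1 (chr3:89271733-89281142, minus strand), next to them on the chromosome, was listed at 0.48 (1.39-fold) in the authors' deposited table. Efna5 (chr17:62604184-62881317, minus strand) had 0.51 (1.42-fold) in the authors' deposited table. The ephrin-A genes were thus a high pair and a low pair, 0.88 apart at the extremes, although all encode short GPI-anchored proteins of 205 to 230 residues. The proteins of Efna4 and Efna1 were identical at 40.3% of 196 aligned residues, and those of Efna5 and Efna1 at 47.5% of 204. The transmembrane ephrin-B genes lay closer together: the authors' deposited table listed Efnb2 at 0.98, Efnb1 at 0.95 and Efnb3 at 0.71. The medians were 0.77 for 4 ephrin-A genes and 0.95 for 3 ephrin-B genes.

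The coding starts of the 4 ephrin-A mRNAs, shown because this family spans nearly the whole range of the members, encode the N-terminal signal that sends the ribosome to the ER. Each run is the first 120 coding bases of the GENCODE M21 transcript, 5′ to 3′ on the coding strand, and the capitals mark the 57 bases that encode the most hydrophobic window of 19 residues within the first 40.
Efna4: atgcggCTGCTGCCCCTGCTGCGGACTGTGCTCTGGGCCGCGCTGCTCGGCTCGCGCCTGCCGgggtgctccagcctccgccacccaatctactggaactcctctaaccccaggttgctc
Efna3: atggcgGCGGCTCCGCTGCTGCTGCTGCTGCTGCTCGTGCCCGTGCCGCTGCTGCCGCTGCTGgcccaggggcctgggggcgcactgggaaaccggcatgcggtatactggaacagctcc
Efna5: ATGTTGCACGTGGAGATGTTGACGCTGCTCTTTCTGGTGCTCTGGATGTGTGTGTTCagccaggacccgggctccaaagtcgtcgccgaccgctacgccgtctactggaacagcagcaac
Efna1: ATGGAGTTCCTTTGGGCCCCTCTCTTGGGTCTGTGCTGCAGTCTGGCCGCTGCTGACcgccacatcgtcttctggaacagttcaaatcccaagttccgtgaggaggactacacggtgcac
Those of Efna3 and Efna5 lie in 1 exon, at chr3:89322714-89322833 and chr17:62881011-62881130, and those of Efna4 and Efna1 span 2 exons, within chr3:89335466-89337950 and chr3:89276398-89279542. Mean hydropathy of the window (Kyte-Doolittle scale) was 1.22 for Efna4, 2.49 for Efna3, 2.15 for Efna5 and 1.33 for Efna1, so the high pair and the low pair each held a weaker and a stronger window. GC content of the 120 bases was 69.2% for Efna4 and 71.7% for Efna3, against 58.3% for Efna5 and 57.5% for Efna1. The last 90 coding bases before the stop codon encode the hydrophobic tail that is exchanged for the GPI lipid, with its most hydrophobic window in capitals.
Efna4: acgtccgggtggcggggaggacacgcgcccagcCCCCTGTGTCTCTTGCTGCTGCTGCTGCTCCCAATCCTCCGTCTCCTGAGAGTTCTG
Efna1: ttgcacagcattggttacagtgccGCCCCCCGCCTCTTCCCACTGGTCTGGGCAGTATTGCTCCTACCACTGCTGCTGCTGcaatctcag
The tail windows of Efna4 and Efna1 had mean hydropathies of 2.35 and 2.04.

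Exons of Efna3 and Efna4 overlap annotated antisense transcripts, Gm15998 over 14.1% of the exon bases of Efna3 and 4731419I09Rik over 10.5% of those of Efna4. The library kit kept the strand, but the strand setting of the counting was not given in the sources used here; whether reads of these partners were told apart was not tested. Among the shared members 14 overlapped exons of another gene, 12 of them on the opposite strand, and the overlap reached 5% of the exon bases in Efna3, Efna4, Sema4c, Epha1 and Plxna1.

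Slits and netrins, both secreted, also differed within their families. Slit2 (chr5:47983138-48307733, plus strand), a repellent that binds Robo receptors, was listed at 1.06 (2.08-fold) in the authors' deposited table. Slit3 (chr11:35121224-35708507, plus strand) had 0.43 (1.34-fold) in the authors' deposited table, and 2.56% of all shared genes were lower. Their proteins have nearly the same length, 1521 and 1523 residues, and were identical at 67.2% of 1514 aligned residues. Their first 120 coding bases, at chr5:47985040-47985159 and chr11:35121515-35121634, are shown to set the pair side by side, with capitals as for the ephrins.
Slit2: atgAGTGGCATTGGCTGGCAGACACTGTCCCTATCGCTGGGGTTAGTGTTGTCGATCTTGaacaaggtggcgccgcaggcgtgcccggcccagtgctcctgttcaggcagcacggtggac
Slit3: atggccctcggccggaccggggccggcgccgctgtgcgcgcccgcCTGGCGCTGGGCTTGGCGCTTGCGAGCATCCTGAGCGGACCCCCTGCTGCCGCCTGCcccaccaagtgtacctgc
GC content of the run was 61.7% for Slit2 and 76.7% for Slit3, and that of the whole coding sequence 47.6% and 57.2%, the other way round from the ephrin-A genes, where the higher ratios went with more GC. Ntn4, a netrin of basement membranes, was listed at 1.01 (2.01-fold) in the authors' deposited table. Ntn1, the classical midline attractant, had 0.61 (1.52-fold) in the authors' deposited table. Slit2, Slit3, Ntn1 and Ntn4 were also among the extracellular matrix genes that the authors listed.

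Both repulsive guidance molecule genes, which encode GPI-anchored ligands of neogenin and co-receptors of bone morphogenetic proteins, lay above the shared-gene median. Rgmb (chr17:15803188-15831039, minus strand) was listed at 1.33 (2.51-fold) in the authors' deposited table, above 81.0% of all shared genes. Rgma stood at 1.12 (2.18-fold) in the authors' deposited table. The antisense transcript A730056A06Rik overlaps 4.65% of the exon bases of Rgma, while exons of Rgmb overlap no other annotated gene. Rgma and Rgmb were the family with the highest median of the members, 1.23 over 2 genes.

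The 3 highest receptors were plexins. The 8 plexin genes had a median log2 ratio of 0.96, and 3 (37.5%) were at least 2-fold higher, against 63.0% of all shared genes. In the authors' deposited table Plxnb2, a receptor of class 4 semaphorins, stood at 1.08. Plxnd1, the receptor of Sema3e, stood at 1.07 and Plxna1 at 1.05 in the authors' deposited table. The authors' deposited table listed Plxnb1 at 0.97, Plxnc1, the receptor of Sema7a, at 0.95 and Plxna2 at 0.93. Plxna3 (0.75) and Plxna4 (0.65), which serve class 3 semaphorins together with neuropilins, were the lowest plexins in the authors' deposited table. Plxna1 and Plxna4 differed by 0.40, while their proteins were identical at 63.8% of 1886 aligned residues. The neuropilin co-receptors lay near the low plexins, with Nrp2 at 0.80 and Nrp1 at 0.70 in the authors' deposited table.

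The 12 Eph receptor tyrosine kinase genes had a median log2 ratio of 0.87, and 0 reached 2-fold, against 63.0% of all shared genes. EphB genes lay close together, within 0.14: the authors' deposited table listed Ephb3 at 0.94, Ephb2 at 0.90, Ephb6, whose kinase domain is inactive, at 0.88, Ephb4 at 0.85 and Ephb1 at 0.80. EphA genes spanned 0.56. Epha4, an Eph receptor known in astrocytes, stood at 0.95 in the authors' deposited table. The authors' deposited table listed Epha1 at 0.94 and Epha2 at 0.91. Below them, the authors' deposited table had Epha7 at 0.79, Epha3 at 0.74 and Epha5 at 0.67. Epha6 (chr16:59653483-60605531, minus strand) had the lowest ratio of all members, 0.39 (1.31-fold) in the authors' deposited table, with 2.06% of all shared genes lower. The median of the 7 EphA genes was 0.79 and that of the 5 EphB genes 0.88, a difference of -0.10 with overlapping ranges.

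Robo and Unc5 receptors lay in the range of the Eph genes, and Neo1 just above it. Robo1 was listed at 0.79 and Robo2 at 0.73 in the authors' deposited table, both below Slit2 and above Slit3. Neo1, the receptor shared by netrins and repulsive guidance molecules, stood at 0.97 in the authors' deposited table. Of the Unc5 genes, whose proteins turn netrin attraction into repulsion, the authors' deposited table listed Unc5b at 0.86 and Unc5c at 0.80. Unc5d was the gene listed for the standard extraction alone. The authors' tables give it no value, and with their rule for listing a gene not given in the sources used here, this listing does not say that its RNA was missing from optimized pellets. The members that are neither classical ligands nor receptors of guidance were Ntng1, a GPI-anchored relative of netrins (0.99), Plxdc1 (1.00) and Plxdc2 (0.79), as listed in the authors' deposited table.

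Ligands as a class lay slightly below receptors and were more spread out. The wider spread lay in the GPI-anchored and secreted ligands, whose quartiles were 0.65 and 0.33 apart. For transmembrane ligands and for receptors the quartiles were 0.18 apart. The median log2 ratio was 0.75 over the 29 ligand genes (quartiles 0.63 and 0.95, range 0.42 to 1.36), and 0.86 over the 27 receptor genes (quartiles 0.77 and 0.94, range 0.39 to 1.08). The difference of medians was -0.11 and the difference of means -0.04. The ranges overlapped almost fully, and with no error between batches the difference was not tested. Ratios of 2-fold or more were found for 6 of 29 ligands (20.7%) and 3 of 27 receptors (11.1%), against 63.0% of all shared genes. All 3 members above the shared-gene median were GPI-anchored ligands. Among the ligands, 4 of 7 GPI-anchored genes and all 12 transmembrane and 10 secreted ones lay below that median. All 27 receptors were transmembrane, so ligands and receptors could not be compared among GPI-anchored genes.

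By membrane anchor, the GPI-anchored genes stood out by their spread. The median log2 ratio of the 8 GPI-anchored genes was 1.02, with quartiles 0.62 and 1.17, against 0.85 with quartiles 0.75 and 0.94 for 41 transmembrane genes, a difference of 0.17 in medians and 0.10 in means. The GPI-anchored genes fell apart into low and high genes: Efna1, Efna5 and Sema7a lay between 0.48 and 0.65, and Ntng1, Efna3, Rgma, Rgmb and Efna4 between 0.99 and 1.36. All 41 transmembrane genes lay below the shared-gene median, as did 5 of the 8 GPI-anchored genes and all 10 secreted ones, whose median was 0.70. The direction depended on which genes entered. Among ligands alone the difference, 7 GPI-anchored against 12 transmembrane genes, was 0.27 in medians and 0.12 in means. Among ephrins alone the difference, 4 GPI-anchored against 3 transmembrane genes, was -0.18 in medians and -0.04 in means, with Efna4 and Efna3 above all 3 ephrin-B genes and Efna5 and Efna1 below them. Without the 5 members with at least 5% exon overlap, Efna3 and Efna4 among them, the difference of medians over all families was -0.0045.

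**Figure D2:**
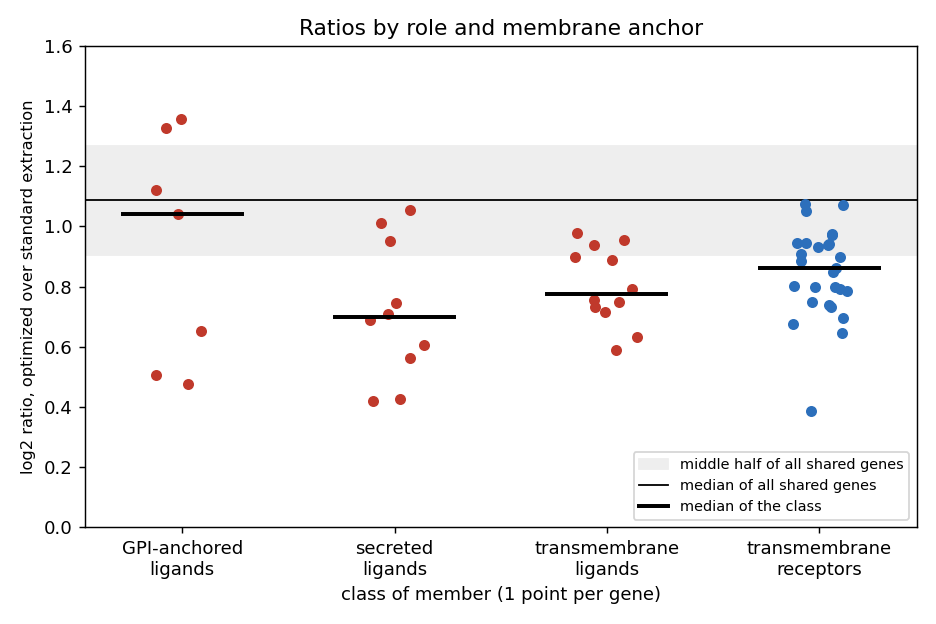
Log2 ratio of optimized over standard extraction (y axis) for ligands that are GPI-anchored, secreted or transmembrane and for the transmembrane receptors (x axis, 1 point per gene, sideways shifts for legibility only). Thick bars are class medians (1.04, 0.70, 0.77 and 0.86), the thin line is the shared-gene median and the band their quartiles; GPI-anchored ligands are split between values at 0.65 or below and values at 1.04 or above.

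Signalling proteins inside the cell did not share the low ratios of the guidance ligands and receptors. A list of 50 cytosolic guidance effectors, such as small GTPases, their regulators and kinases, had 49 shared genes with a median log2 ratio of 1.13. Of these, 20 lay below the shared-gene median and 36 (73.5%) were at least 2-fold higher, against 63.0% of all shared genes. At the top of this list the authors' deposited table had Abl1, a tyrosine kinase that acts downstream of Robo, at 1.54, the GTPase gene Rhod at 1.52 and Limk2, a kinase that inhibits cofilin, at 1.49. At its low end the authors' deposited table had Ablim3, an actin-binding protein gene, and Vav3, a guanine nucleotide exchange factor, both at 0.67, and Ngef, the exchange factor ephexin that binds EphA4, at 0.70. The median of the guidance ligands and receptors lay 0.32 below that of their effectors.

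Other surface proteins lay on the same side as the guidance genes. Receptor tyrosine kinases outside the Eph family (24 shared genes of 25) had a median log2 ratio of 0.93. Of them, 20 lay below the shared-gene median and 6 (25%, against 63.0% of all shared genes) were at least 2-fold higher. They ran from 0.46 for the neurotrophin receptor gene Ntrk3, 0.65 for Ror2 and 0.67 for Egfr to 1.13 for Erbb3 and Fgfr1 and 1.35 for Ryk, an atypical Wnt receptor, in the authors' deposited table. The Eph genes lay 0.06 below these kinases by the median. Neural adhesion molecules (16 shared genes of 23, the others not analysed here) had a median of 0.64, and all 16 lay below the shared-gene median. The authors' deposited table gave its lowest values of this list to Ncam2 (0.22), Cntn3 (0.38) and Chl1 (0.46), and its highest to Cadm4 (0.96), Itgb1 (0.95) and Cdh2 (0.91). The guidance receptors lay 0.23 above the adhesion molecules by the median. None of these differences was tested, for want of values per library.

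**Figure D3:**
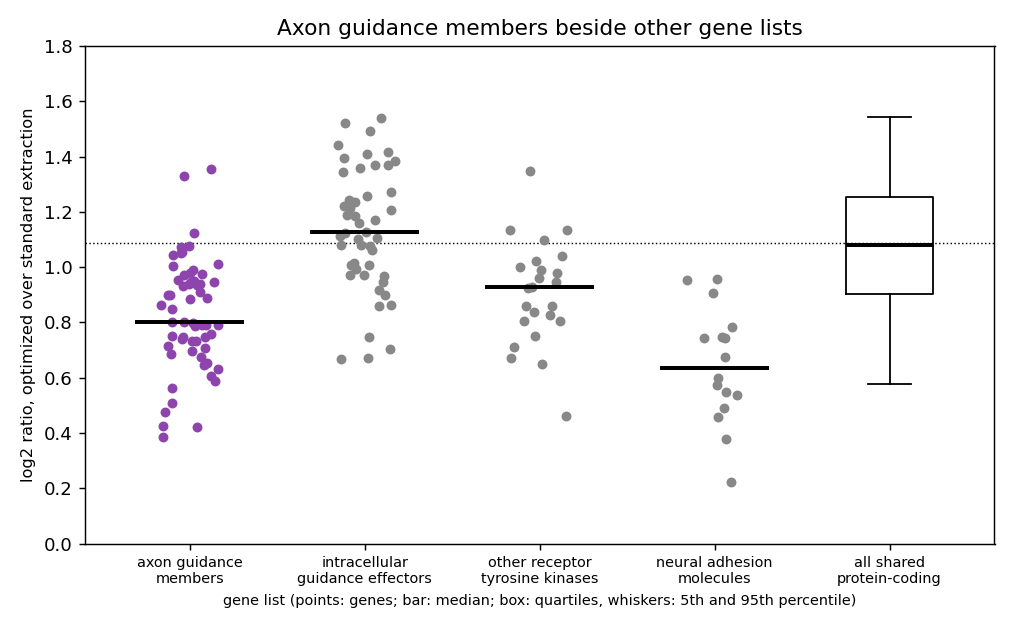
Log2 ratio of optimized over standard extraction (y axis) for the 59 axon guidance members, 49 intracellular guidance effectors, 24 other receptor tyrosine kinases and 16 neural adhesion molecules (points, 1 per gene, with a bar at the median), beside a box of all 12620 shared protein-coding genes (quartiles, whiskers at 0.58 and 1.54, with 5% of genes beyond each). The medians are 0.80, 1.13, 0.93, 0.64 and 1.08, and the dotted line is the shared-gene median.

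The members also shared features that the symbol rule did not use. Their coding sequences were long, with a median of 2835 bases against 1422 for shared protein-coding genes, and ran from 615 to 6357 bases. Of the 59 members, 52 also lay below the median of the protein-coding genes of similar coding length (10 bins). Across all 59 members the rank correlation of the ratio with coding length was near 0 (Spearman coefficient 0.02). By role the signs differed, with -0.17 across 29 ligands and 0.29 across 27 receptors. Over 12600 shared protein-coding genes it was -0.20. The ratio ranked higher with a higher GC content of the coding sequence, with a Spearman coefficient of 0.32 across the 59 members, 0.51 across 27 receptors and 0.31 across 29 ligands, against 0.07 across the protein-coding genes. These correlations are over genes of shared libraries and families, which are not independent replicates. The 30 members with the higher GC content had a median log2 ratio of 0.90, and the 29 others 0.79. A hydrophobic N-terminal window (mean hydropathy of at least 1.6) was found in 27 members, with a median of 0.80, and the 32 others had 0.82. Over all shared protein-coding genes the 1544 with such a window had a median of 0.87 and the 11056 without it 1.11. Of those 1544 genes, 1231 lay below the shared-gene median and 31.3% were at least 2-fold higher. A window of this hydropathy anywhere in the protein was found in 53 members, with a median of 0.80. The 4332 shared protein-coding genes with one had a median of 0.95, with 3052 below the shared-gene median. The 8268 without one had 1.14. The N-terminal window is a coarse proxy, since secreted members such as Slit2 lacked it.

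**Figure D4:**
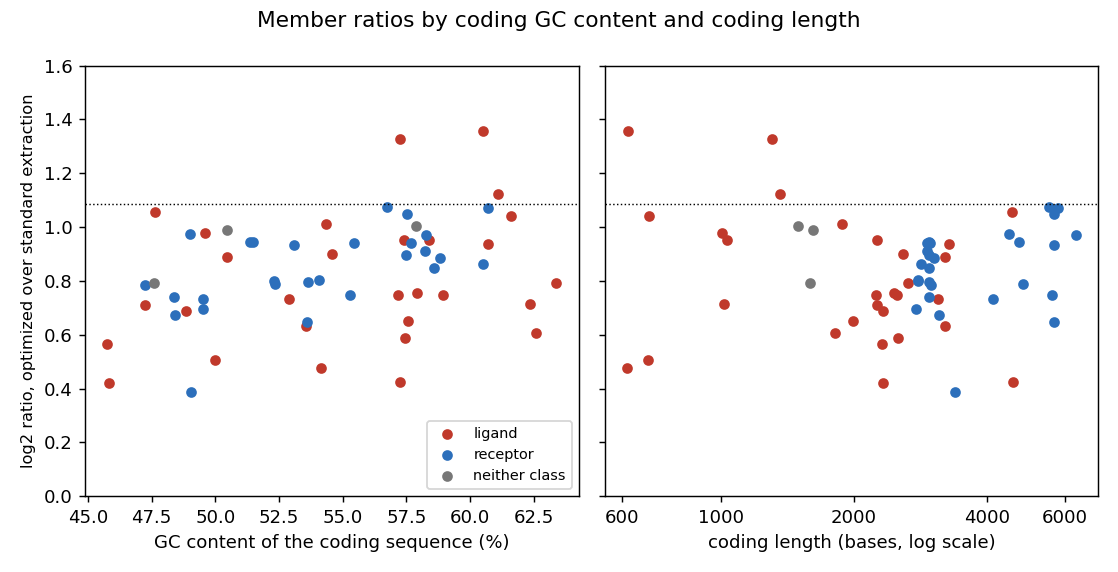
Log2 ratio of optimized over standard extraction (y axes) for the 59 shared members against the GC content of the coding sequence in percent (left) and the coding length in bases on a log scale (right), 1 point per gene, coloured by role. The dotted line is the shared-gene median (1.09). Ratios are higher with more GC (Spearman coefficient 0.32). With length the coefficient is 0.02 over all members, -0.17 over ligands and 0.29 over receptors.

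All 8 astrocyte markers were listed in both extractions, with a median log2 ratio of 0.97 and a range from 0.61 to 1.11. Markers of other cells that such cultures can hold were listed too. For neurons 5 of 7 were listed (median 0.64, range 0.36 to 1.16), and for the oligodendrocyte lineage 6 of 7 (0.94, 0.63 to 1.27). For fibroblasts and pericytes 6 of 7 were listed (0.66, 0.49 to 0.84), for endothelium 3 of 5 (0.81, 0.29 to 0.94) and for microglia 1 of 7 (0.85). A listing and a ratio between extractions give no abundance, so these markers do not test the labelled cell type. Which cells the guidance transcripts came from was not tested.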

How the data were processed

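RNA of heavy complexes was sequenced in 6 libraries, 3 per extraction. The submitters' processing notes name TopHat2, featureCounts and the mouse build mm10. Versions, annotation, strand setting and scaling were not given in the sources used here. Per the file headers, the authors deposited 1 log2 fold change for each gene, with the optimized extraction over the standard one; tables of genes listed for 1 extraction carry no value. Unmatched columns of per-sample values numbered 0. The planned tests need a value per library, which was not analysed here; lists are described by counts (at least 2-fold, or below the shared-gene median) and medians, without tests. The members and lists were chosen with earlier results of these data known. All members may be named; of the other lists the 3 highest and 3 lowest are.

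Identifiers were matched to GENCODE M21 (GRCm38, the assembly of mm10): 13962 of 13970 matched, with a coding sequence for 12600 of 12620 shared protein-coding genes (principal transcript, then the longest). Hydropathy windows of 19 residues used the Kyte-Doolittle scale, and proteins were aligned globally with BLOSUM62, gap penalties 11 and 1. Printed sequences come from GENCODE M21 transcripts. The summaries were tested on permuted deposited ratios with known shifts added, which checks the calculation only. Python 3.11.15, numpy 2.4.6, pandas 2.3.3, Biopython 1.88 and matplotlib 3.10.9 were used.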

Additional observations from a re-analysis of the deposited data

How the results depend on the processing

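Depth and the spread between batches are unknown, so a median was called moved when it changed by over 0.1 on the log2 scale and a count when it changed by over 1.5 times. Of 20 alternative values, 14 kept their direction and stayed within these limits, among them the count of members below the median. The ligand minus receptor difference of -0.11 kept its sign under all 5 of its alternatives but not its size: it was -0.04 with means, -0.05 with family medians and -0.07 with membrane-bound ligands only. The GPI-anchored minus transmembrane difference of 0.17 was 0.10 with means, 0.23 without members of the authors' lists and 0.24 against transmembrane ligands only. It was -0.18 for ephrin-A against ephrin-B, and -0.0045 without the 5 members with at least 5% exon overlap, an alternative chosen after seeing the data. Centred on the median of shared protein-coding genes, the members' median was -0.28 by construction. The count of 10 members at least 2-fold higher was 53 at a 1.5-fold threshold, 0 at 2-fold above the shared-gene median and 0 at 2-fold above that of protein-coding genes. No paired analysis was possible because the tables give 1 ratio per gene and no value per batch. For the same reason the edgeR and DESeq2 fits, the fit without a filter and the fits leaving out a batch were not run.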

Other observations

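Class 3 semaphorin genes lie in neighbouring groups on their chromosomes. On chromosome 5 (mm10) the authors' deposited table listed Sema3d (12383385 to 12588948) at 0.42, Sema3a (13125414 to 13602565) at 0.56, Sema3e (14025276 to 14256689) at 0.69 and Sema3c (17574281 to 17730268) at 0.71. On chromosome 9 the authors' deposited table listed Sema3b (107597674 to 107609229) at 0.75 and Sema3f (107681500 to 107710475) at 0.95. The coding GC content of Sema3d, Sema3a, Sema3e and Sema3c was 45.8%, 45.8%, 48.9% and 47.2%, and that of Sema3b and Sema3f was 58.9% and 58.4%. Members in the authors' own lists, 4 of extracellular matrix genes and 3 of the outer plasma membrane, had median log2 ratios of 0.81 and 0.65, against 0.85 for the 52 members in neither list. Those lists may have been drawn up with these libraries in view, so their direction is not independent evidence.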
